A study of Mus musculus with 8 samples.

Results

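The effect of removing Nfil3 was examined in pre-Baso, a basophil precursor population of mouse bone marrow, by comparing 2 libraries from Nfil3-depleted mice with 2 from wild type mice. These 4 libraries were chosen from the 8 of the study by their population and genotype labels, and the other 4 are basophils of both genotypes. All mice were C57BL/6J, and the design text names littermates as controls. The Nfil3-depleted mice are called deficient here: their sample titles read floxed out, and the labels give neither a Cre driver nor the animals' age. An effect of Nfil3 loss and one of other alleles that these mice carry cannot be told apart. The pre-Baso gate took cells without lineage markers, CD34 or c-kit that carried CD200R3 and stained strongly with MAR1, an antibody against the alpha chain of the IgE receptor. Basophils were sorted by the same markers with intermediate MAR1 staining. Each group is a pair of biological duplicates by the design text.

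Nfil3 encodes a basic leucine zipper protein that binds DNA and was first known as a repressor. It is needed for the development of natural killer cells, innate lymphoid cells and a class of dendritic cells, and it opposes the clock output activators Dbp, Tef and Hlf at shared sites. Basophils are rare granulocytes that store histamine and proteases, bear the high-affinity IgE receptor and release IL-4 when that receptor is crosslinked.

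Between 313 and 398 megabases of aligned sequence were assigned to annotated transcripts in each pre-Baso library. Levels are given in TPM, which scales each transcript's reads by its length and by the library's total, and changes as the deficient minus the control mean of log2(TPM + 1) with the standard error (SE), a scale that understates the change of genes near 1 TPM. Entries annotated as miRNA took 57.4% to 62.8% of the TPM in pre-Baso libraries. Protein-coding genes took 18.7% and 22.4% in control and 20.5% and 19.1% in deficient libraries, so TPM levels depend on that share. Of the assigned bases 31.4% to 33.1% were ribosomal RNA. Adjusted p-values are limma's. Across genes, log2(TPM + 1) correlated at 0.979 between the control libraries, at 0.974 between the deficient ones and at 0.972 to 0.974 between libraries of different genotype. The gate's markers, named here outside the rule for named genes, were checked as well. Cd200r3, which the sort selected for, had 223 and 306 TPM in control and 276 and 296 TPM in deficient pre-Baso. Kit, whose product the sort excluded, had 0.637 and 0.276 against 0.474 and 0.326 TPM, and Cd34, the other excluded marker, had 1.77 and 1.75 against 1.88 and 0.931 TPM.

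Nfil3 (ENSMUSG00000056749, chromosome 13, 52967209 to 52981073, minus strand, mm10) had 6.61 and 7.65 TPM in control and 0 and 0.624 TPM in deficient pre-Baso. Both deficient libraries were below both controls, and the change was -2.67 ± 0.25 (adjusted p = 0.00896). With 2 against 2 libraries an exact two-sided permutation test gave p = 0.333, the smallest it allows. Over all 8 libraries the log2 difference was -3.05, and the exact permutation p of 0.0286 was again the smallest possible. That test shuffled genotype over 70 splits without regard to population. It treats pre-Baso and basophil libraries as exchangeable, although control Nfil3 was 20.5 and 22.5 TPM in basophils. A shuffle within each population was not run. The call of Nfil3 held in 12 of 18 other settings. It was lost without either control pre-Baso library (adjusted p = 0.165 without the first and adjusted p = 0.136 without the second). It was also lost with a pseudocount of 0.1 (adjusted p = 0.175), with no filter on low values (adjusted p = 0.0564), with TPM rescaled to protein-coding genes (adjusted p = 0.121) and with the 4 pre-Baso libraries alone (adjusted p = 0.0942).

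Coverage was compared by exon for Nfil3. Exon 2 (52967209 to 52969021), which holds the coding sequence, had a mean per-base coverage of 4.29 and 5.29 in controls and 0 and 0.0563 in deficient libraries. Exon 1 (52980861 to 52981073), which is upstream, had 2.36 and 1.20 in controls and 0 and 2.87 in deficient libraries. Exon 1 was thus still covered in the second deficient library, above both controls, while exon 2 was nearly empty there. The first deficient library had no coverage of either exon and so does not separate them. In deficient basophils exon 1 had 3.40 and 5.62, and exon 2 had 0.0827 and 0.191.

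**Figure D1:**
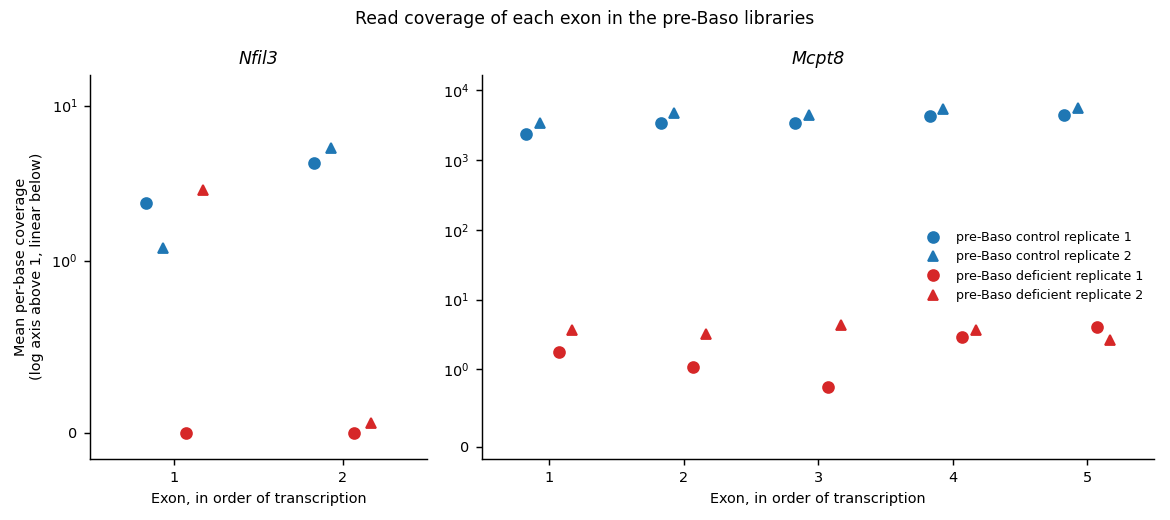
Mean per-base read coverage (y axis, logarithmic above 1 and linear below) of each exon in order of transcription (x axis) of Nfil3 (left) and Mcpt8 (right, summed over its 2 annotated transcripts), 1 point per pre-Baso library. Nfil3 exon 2 stands at 0 and 0.0563 in deficient libraries while exon 1 keeps 2.87 in one of them, and Mcpt8 exons lie between 2375 and 5590 in controls and between 0.767 and 4.29 in deficient libraries.

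Of 12511 genes tested, 8 were called at an adjusted p under 0.05 (0.0639%), 4 lower (0.032%) and 4 higher (0.032%) in deficient pre-Baso. Mcpt8, Rnase12, Gm43305 and Nfil3 fell, and Rprl3, Defb40, Gm47484 and Lgals3 rose. At an unadjusted p under 0.05 there were 548 genes (4.38%). Over all genes tested 5421 changes were above 0 (43.3%) and the median was -0.04, the background for each count of changes above 0 given for a gene list. The count of calls was 5 to 9 when single libraries were left out, lowest without the first control pre-Baso library, and 3 when the 4 pre-Baso libraries were fitted alone.

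**Figure D2:**
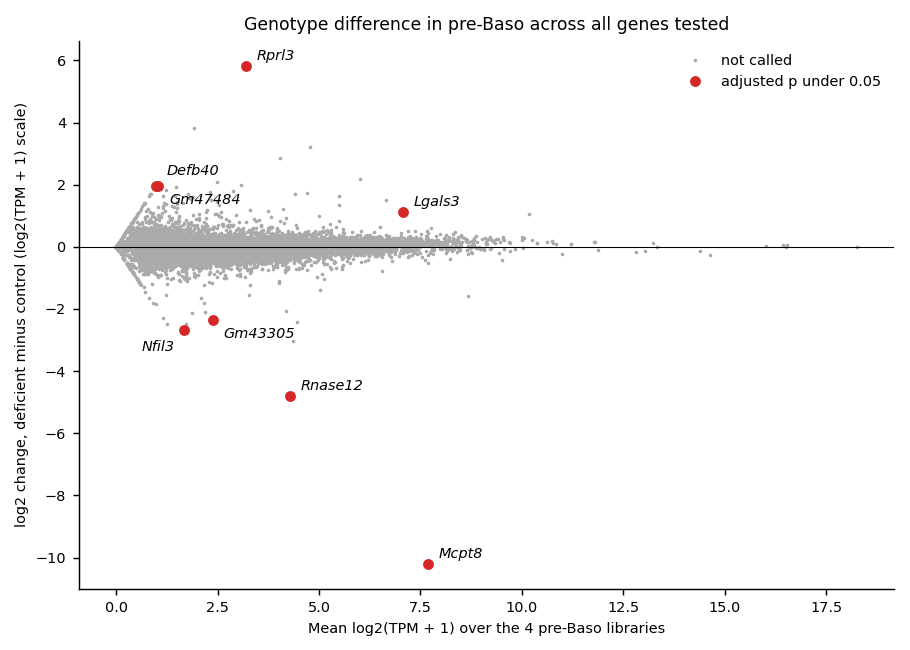
log2 change between genotypes in pre-Baso (y axis, deficient minus control on the log2(TPM + 1) scale) against the mean log2(TPM + 1) over the 4 pre-Baso libraries (x axis), 1 point per gene tested and red for the 8 called genes. Mcpt8 at -10.20, Rprl3 at 5.83 and Rnase12 at -4.80 lie far from the other genes, and Lgals3 at 1.13 is called at a high level.

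Sequence before an annotated start of Mcpt8 and Rnase12, the protein-coding genes besides Nfil3 that fell, is shown because both lost nearly all their RNA. The windows come from RefSeq promoters (GRCm38.p6, minus strand, 5′ to 3′, annotated exon bases left out): chr14:56085274-56085447 for Mcpt8 and chr14:51057259-51057492 for Rnase12. The Mcpt8 window precedes both of its annotated transcripts. The Rnase12 window precedes the shorter of its 2 transcripts and lies in the intron of the longer one.
Mcpt8: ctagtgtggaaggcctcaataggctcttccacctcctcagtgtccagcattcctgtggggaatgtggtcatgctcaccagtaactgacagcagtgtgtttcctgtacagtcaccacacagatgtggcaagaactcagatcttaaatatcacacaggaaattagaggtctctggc
Rnase12: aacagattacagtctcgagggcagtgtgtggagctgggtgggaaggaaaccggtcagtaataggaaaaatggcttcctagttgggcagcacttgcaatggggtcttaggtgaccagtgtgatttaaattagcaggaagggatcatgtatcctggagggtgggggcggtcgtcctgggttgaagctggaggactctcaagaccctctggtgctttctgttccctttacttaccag
Neither window holds TTATGTAA or TTACGTAA, core letters of sites bound by this protein family, on either strand, nor TTANNTAA, a looser form that contains both, so no letters are in capitals. Of 7565 tested genes with a RefSeq promoter of 300 bases, 67 held a strict form (0.886%) and 334 the loose one (4.42%). Promoters were matched by symbol for 5 of the 8 called genes, and 0 of the 5 held either form. This says only that these letters are not in these windows.

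Mcpt8 (ENSMUSG00000022157, chromosome 14, 56082166 to 56085273, minus strand) encodes a serine protease of basophil granules that is used as a marker of the lineage. It had 6244 and 7888 TPM in control and 4.08 and 6.04 TPM in deficient pre-Baso. The deficient mean was 1395-fold lower, a change of -10.20 ± 0.24 (adjusted p = 5.56e-07). In control libraries Mcpt8 made up 3.34% and 3.53% of the protein-coding TPM and ranked 3 among protein-coding genes; in deficient libraries it made up 0.00199% and 0.00317% and ranked 3775. All 5 exons were affected, with coverage between 2375 and 5590 in controls and between 0.767 and 4.29 in deficient libraries. In basophils Mcpt8 had 969 and 1400.4 TPM in control and 2.73 and 1.98 TPM in deficient basophils, so the genotypes were far apart after either sort.

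Rnase12 (ENSMUSG00000068407, chromosome 14, 51056698 to 51057661, minus strand) belongs to the ribonuclease A family. It had 91.9 and 111 TPM in control and 2.55 and 2.81 TPM in deficient pre-Baso, a change of -4.80 ± 0.18 (adjusted p = 1.57e-05), and the genotypes lay far apart. Mcpt8 and Rnase12 were called in all 18 other settings of the analysis, including those that left out 1 library each. Gm43305 (ENSMUSG00000105703, chromosome 14, 54292443 to 54297456, minus strand), a non-coding transcript without a given name, had 9.87 and 11.6 TPM in control and 1.39 and 1.22 TPM in deficient pre-Baso (-2.35 ± 0.17, adjusted p = 0.00154). Its libraries did not overlap either, and its call was lost only in the fit of the 4 pre-Baso libraries alone (adjusted p = 0.0815).

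Lgals3 (ENSMUSG00000050335, chromosome 14, 47367751 to 47386160, plus strand) was the most abundant of the 4 genes called higher, and it encodes galectin-3, a sugar-binding protein of myeloid cells. It had 83.3 and 96.5 TPM in control and 209 and 187 TPM in deficient pre-Baso (1.13 ± 0.14, adjusted p = 0.0404). Every deficient library was above every control. The call was lost on removal of any 1 of the 8 libraries, and it held in 6 of 18 other settings, with changes of 1.03 to 1.24 and adjusted p-values of 0.00739 to 0.295.

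Defb40 (ENSMUSG00000053678, chromosome 8, 18974940 to 18978256, minus strand), a beta-defensin gene, had 0 and 0 TPM in control and 3.702 and 2.23 TPM in deficient pre-Baso (1.96 ± 0.20, adjusted p = 0.0175), and both control libraries list it at 0. Gm47484 (ENSMUSG00000113529, chromosome 12, 84313854 to 84317076, minus strand), a non-coding RNA from a bidirectional promoter, had 0.0869 and 0 TPM in control and 3.14 and 2.99 TPM in deficient pre-Baso (1.96 ± 0.24, adjusted p = 0.0404). Both genes were separated by genotype at levels of a few TPM. The call of Defb40 held in 11 of 18 other settings and was lost without either control (adjusted p = 0.273 and adjusted p = 0.159) or without the first deficient pre-Baso library (adjusted p = 0.0778). That of Gm47484 held in 6 of 16 and was lost on removal of any 1 pre-Baso or deficient basophil library; it had adjusted p-values up to 0.386 over the settings.

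**Figure D3:**
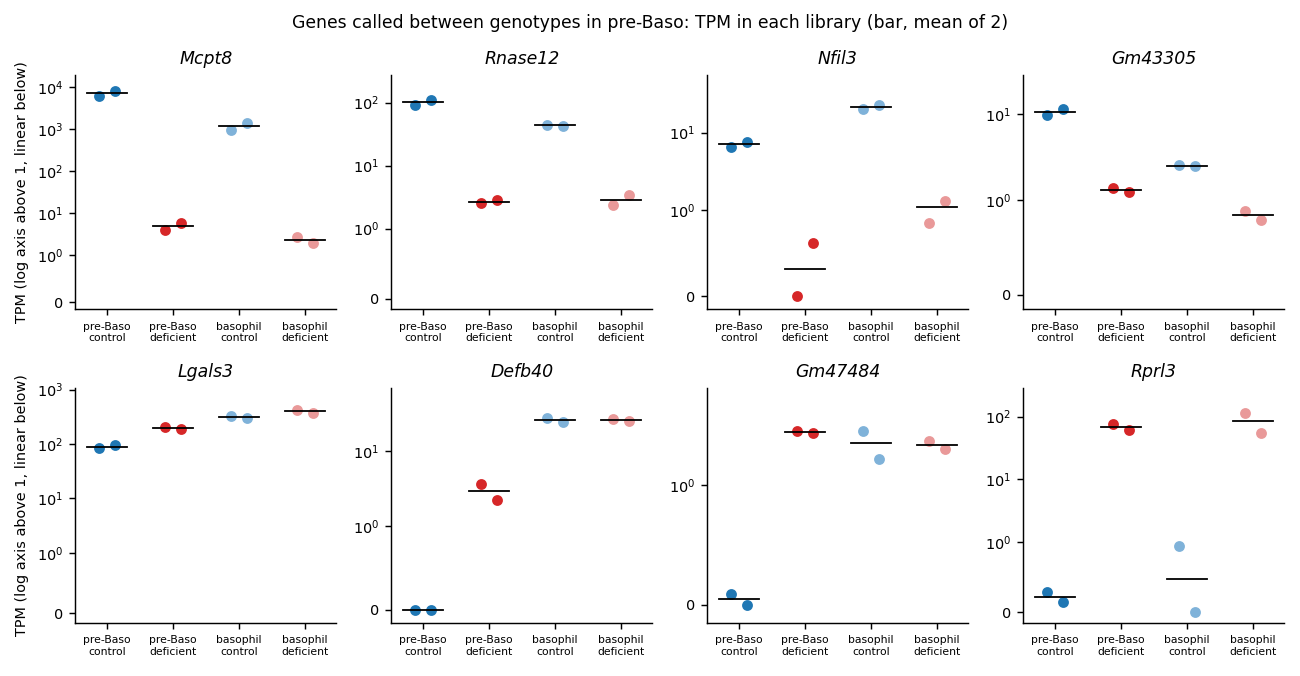
TPM in each library (y axis, logarithmic above 1 and linear below) of the 8 genes called in pre-Baso, for control and deficient pre-Baso and basophils (x axis), with 1 point per library and a bar at the mean of 2. Mcpt8, Rnase12, Nfil3, Rprl3, Gm43305 and Lgals3 are split by genotype in both populations, while Defb40 and Gm47484 are near 0 in control pre-Baso only.

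In basophils, Defb40 had 27.7 and 24.7 TPM in control and 26.8 and 25.1 TPM in deficient basophils. Gm47484 had 3.17 and 1.72 TPM in control and 2.56 and 2.15 TPM in deficient basophils, and Lgals3 had 324 and 302 TPM in control and 429 and 378 TPM in deficient basophils. Control pre-Baso was thus the lowest of the 4 groups for each of these 3 genes that rose. Gm43305 had 2.55 and 2.48 TPM in control and 0.888 and 0.787 TPM in deficient basophils, and Rnase12 had 44.5 and 42.2 TPM in control and 2.395 and 3.37 TPM in deficient basophils.

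The difference between the genotype effects of pre-Baso and basophils was tested in the same limma fit, and 0 of 12511 genes passed (0%), with 689 at an unadjusted p under 0.05. The count was 0 to 2 in other settings, and it was 2 without the second control basophil library. No other tool was run. Defb40 had a genotype change of 1.96 in pre-Baso and -0.01 in basophils, a difference of 1.97 ± 0.29 (adjusted p = 0.536). Gm47484 had 1.96 and -0.01, a difference of 1.97 ± 0.33 (adjusted p = 0.656). The survivin gene Birc5, active in dividing cells, had 67.3 and 89.8 TPM in control and 82.7 and 63.4 TPM in deficient pre-Baso and 2.6 and 2.501 TPM in control and 15.1 and 28.4 TPM in deficient basophils. Its genotypes overlapped in pre-Baso only, and the difference was -2.71 ± 0.41 (adjusted p = 0.536). For none of these genes was a difference between the populations shown.

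Rprl3 is a copy of the gene for the RNA component of RNase P, the ribozyme that trims transfer RNA precursors, and Rpph1 is the main gene for that RNA. The aligned stretch of both RNAs is shown because reads within it can be told apart only where the sequences differ. Capitals mark substitutions and bases of Rpph1 without a partner in the alignment. Most of the bases without a partner repeat the letters that follow them, which Rprl3 also holds. Reads lying within that repeat alone do not separate the RNAs. The ends that do not align are not shown. Both sequences come from GENCODE transcripts (GRCm38), 5′ to 3′, over the 257 bases of Rpph1 and the 236 of Rprl3 that align.
Rpph1: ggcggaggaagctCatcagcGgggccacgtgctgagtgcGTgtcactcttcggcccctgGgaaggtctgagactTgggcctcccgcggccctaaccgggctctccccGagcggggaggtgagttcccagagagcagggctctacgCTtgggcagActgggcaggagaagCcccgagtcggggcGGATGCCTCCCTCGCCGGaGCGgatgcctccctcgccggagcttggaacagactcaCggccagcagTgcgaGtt
Rprl3: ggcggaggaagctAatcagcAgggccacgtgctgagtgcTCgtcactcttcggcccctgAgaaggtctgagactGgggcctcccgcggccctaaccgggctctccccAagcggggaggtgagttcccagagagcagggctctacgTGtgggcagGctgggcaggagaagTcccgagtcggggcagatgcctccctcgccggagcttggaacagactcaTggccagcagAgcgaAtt
Of 236 aligned pairs 222 were identical (94.1%) and 14 were substitutions, and 21 bases of Rpph1 had no partner. How reads were divided between such near-identical copies is uncertain.

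Rprl3 (ENSMUSG00000088025, chromosome 8, 3803069 to 3803358, minus strand) had 0.284 and 0.138 TPM in control and 76.7 and 60.05 TPM in deficient pre-Baso (5.83 ± 0.39, adjusted p = 0.00101). Rpph1 (ENSMUSG00000092837, chromosome 14, 50807449 to 50807767, minus strand) had 712 and 696 TPM in control and 257 and 213 TPM in deficient pre-Baso, without overlap, and its change of -1.58 ± 0.22 was not called (adjusted p = 0.0877). It was called in 4 other settings, with adjusted p-values from 0.025 to 0.0484. The sum of both was 713 and 697 TPM in control and 334 and 273 TPM in deficient pre-Baso. Rprl3 took 0.0399% and 0.0199% of that sum in control and 22.97% and 21.97% in deficient libraries. The summed level was thus lower, and the copy's share higher, in both deficient libraries.

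Of 11 tested RNase P and RNase MRP genes 1 was called, Rprl3, and the median change was 0.08 against -0.04 over all genes. Pop5, a protein subunit of both enzymes, had 10.7 and 10.1 TPM in control and 23.8 and 27.7 TPM in deficient pre-Baso (1.23 ± 0.20, adjusted p = 0.214). Its deficient libraries were above both controls without a call.

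The called genes lay unevenly on the genome. Mcpt8, Rnase12, Gm43305 and Lgals3, 4 of the 8, are on chromosome 14, which holds 433 of the genes tested (3.46%). Of these 433 genes 41 had an unadjusted p under 0.05 (9.47%), the largest share of the chromosomes, followed by 5.77% on chromosome 10. Within 10 Mb of Mcpt8, without that gene, it was 28 of 159 (17.6%), and on the rest of the chromosome 12 of 273 (4.40%), near the 4.38% of all genes. Over the other settings the share within 10 Mb was 12.6% to 21.0%. Around Nfil3 it was 9 of 127 within 10 Mb (7.09%) and 14 of 408 beyond (3.43%).

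**Figure D4:**
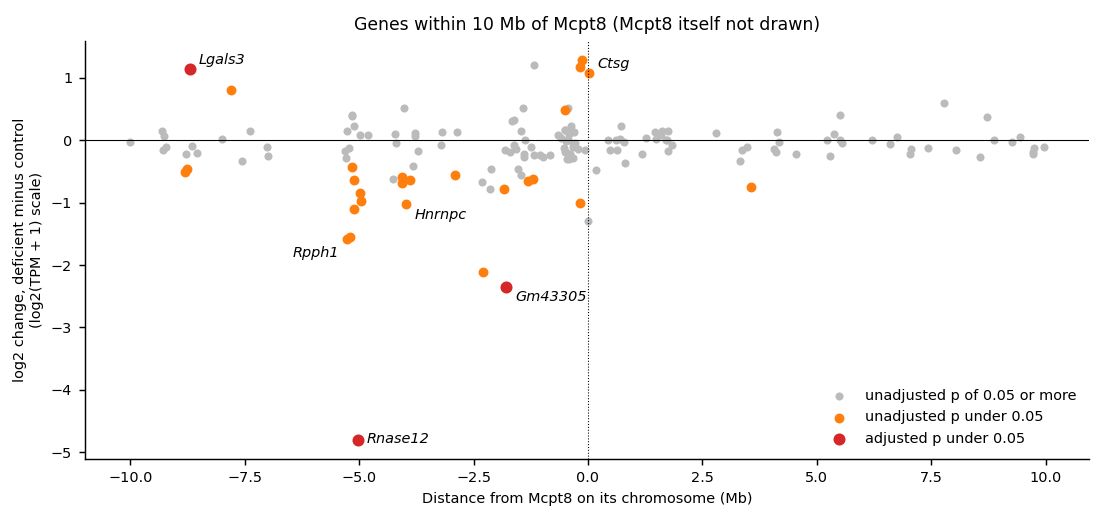
log2 change between genotypes in pre-Baso (y axis, deficient minus control on the log2(TPM + 1) scale) against the distance from Mcpt8 in Mb (x axis) for the 159 other genes tested within 10 Mb, coloured by p. Most of the 28 genes with an unadjusted p under 0.05 lie on the left side, down to Rnase12 at -4.80.

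The nearest tested protein-coding neighbour of Mcpt8, Ctsg, encodes cathepsin G, another granule protease. It had 745 and 841 TPM in control and 1857 and 1486 TPM in deficient pre-Baso, without overlap, and its change of 1.07 ± 0.21 was not called (adjusted p = 0.404). Cma1, the mast cell chymase gene, had 0 and 0.715 TPM in control and 2.41 and 2.001 TPM in deficient pre-Baso (1.29 ± 0.30, adjusted p = 0.709). Gzmb, the granzyme B gene, had 3.25 and 4.901 against 3.95 and 1.58 TPM, and its genotypes overlapped. Khnyn had 3.91 and 3.91 against 1.49 and 1.398 TPM (-1.01 ± 0.19, adjusted p = 0.34), while Sdr39u1 had 8.31 and 7.72 against 20.5 and 18.02 TPM (1.17 ± 0.38, adjusted p = 1). Khnyn and Sdr39u1 overlap on opposite strands and differed in the sign of their change, and without strand their shared reads cannot be told apart. Hnrnpc, an RNA-binding protein gene farther along the chromosome, had 45.5 and 52.1 against 22.8 and 24.05 TPM (-1.03 ± 0.18, adjusted p = 0.283).

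Of 15 tested genes for granule proteases and matrix 1 was called, Mcpt8, and 3 changes were above 0 (median -0.10). Prss34, a basophil protease gene and the most abundant protein-coding gene in both genotypes, had 19819.9 and 25020.2 TPM in control and 22153 and 18974 TPM in deficient pre-Baso, with overlap. Cpa3, carboxypeptidase A3, had 348 and 378 against 348 and 328 TPM. Of 8 tested ribonuclease A genes 1 was called, Rnase12. Its neighbours Rnase6, with 5.15 and 3.804 against 1.36 and 2.26 TPM (adjusted p = 0.708), and Ang, with 1.46 and 1.62 against 0.343 and 0.493 TPM (adjusted p = 0.849), were below controls in both deficient libraries. Rnase4, which lies with them and overlaps Ang on the same strand, had 2.43 and 3.84 against 2.57 and 4.23 TPM (0.09), with overlap.

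Of 39 tested basophil identity genes the single call was Mcpt8; 13 changes were above 0, and the median was -0.04. Deficient libraries were all higher for 2 members and all lower for 5. Over all genes tested 30.5% did not overlap between genotypes, 11.2% higher and 19.3% lower. That split depended on scaling: with TPM rescaled to protein-coding genes it was 19.6% higher and 17.3% lower, and with libraries shifted to 1 median 19.8% and 16.0%.

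Of 28 tested genes of the IgE receptor and its signalling 0 were called, and 6 changes were above 0 (median -0.10). Fcer1a, the alpha chain that MAR1 stains, had 959.8 and 744 TPM in control and 711 and 547 TPM in deficient pre-Baso (-0.44 ± 0.27, adjusted p = 1). The beta chain Ms4a2 had 209 and 286 against 109 and 262 TPM, and the gamma chain Fcer1g had 922 and 1208 against 1088 and 974 TPM. In TPM as deposited, only Fcer1a of the receptor's chains did not overlap between genotypes, a gap that closes with TPM rescaled to protein-coding genes. Lyn, a kinase that starts the signal, had 10.9 and 10.4 against 7.21 and 8.199 TPM (-0.42).

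Of 12 tested cytokine and chemokine genes 0 were called, and 9 changes were above 0 (median 0.19). Ccl6, a chemokine of myeloid cells, had 144 and 215 TPM in control and 249 and 289.8 TPM in deficient pre-Baso (0.61 ± 0.18, adjusted p = 0.991). Il4, the signature cytokine of basophils, had 38.1 and 43.4 against 41.9 and 41.5 TPM, with overlap. Of 37 tested receptor genes 0 were called. Il3ra, the alpha chain of the receptor for the basophil growth factor IL-3, had 66.7 and 71.7 against 71.6 and 69.9 TPM, and Il18r1, a chain of the IL-18 receptor, had 14.1 and 19.2 against 21.97 and 23.1 TPM (0.43).

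Of 5 tested histamine genes 0 were called. Hdc, the enzyme that makes histamine, had 70.6 and 95.2 against 72.3 and 90.9 TPM, with overlap, and Slc18a2, which loads it into granules, had 14.6 and 14.7 against 11.5 and 11.9 TPM (-0.30). Of 11 lipid mediator genes 0 were called, and Alox5, the first enzyme of leukotriene synthesis, had 74.9 and 89.04 against 68.8 and 64.01 TPM (-0.29).

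Among surface molecules 0 of 25 tested adhesion genes were called, with 4 changes above 0 (median -0.13). Of 15 inhibitory and paired receptors 0 were called, with 11 changes above 0, and Fcgr2b, the inhibitory IgG receptor, had 15.2 and 18.8 against 21.96 and 31.1 TPM (0.60). Lgals3 was the single call of 6 galectin genes, and Lgals4 had 3.45 and 3.48 against 1.08 and 1.41 TPM (-0.99 ± 0.17, adjusted p = 0.283), in the opposite direction.

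Of 45 tested lineage transcription factors 0 were called, and 10 changes were above 0 (median -0.15). Deficient libraries were all lower for 11 and all higher for 5 of them, near the 19.3% and 11.2% of all genes. Klf13 had 29.6 and 25.8 against 14.7 and 19.8 TPM (-0.67), and Cebpb, a leucine zipper relative of Cebpa, had 61.6 and 55.9 against 36.99 and 37.5 TPM (-0.64). Gata2, a factor that basophil development needs, had 215 and 246 against 169 and 233 TPM, with overlap. Gata1 had 17.9 and 24.2 against 18.4 and 17.8 TPM. Cebpa had 102 and 93.1 against 80.4 and 82.7 TPM, lower in both deficient libraries in TPM as deposited but not with rescaling to protein-coding genes.

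Of 13 tested clock and PAR bZIP genes the single call was Nfil3, and 2 changes were above 0. Dbp, whose product competes with NFIL3 for sites, had 3.73 and 3.57 against 2.23 and 3.59 TPM. Cry1, a clock repressor, had 1.76 and 1.91 against 1.33 and 1.54 TPM (-0.22). Of 12 tested genes reported to depend on NFIL3 in other lymphoid and myeloid cells 0 were called. Id2, an inhibitor of helix-loop-helix factors, had 13.9 and 8.7 against 7.78 and 12.1 TPM, with overlap.

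Survival and division genes gave no call. Of 30 apoptosis and survival genes 8 had a change above 0 (median -0.10). Of 54 G2 and mitosis genes 14 had a change above 0 (median -0.10), and Aurka, a mitotic kinase gene, had 7.31 and 10.4 against 5.78 and 6.09 TPM (-0.49). Of 45 replication genes 13 had a change above 0 (median -0.11). Of 17 G1 genes 4 had a change above 0 (median -0.24); Cdkn2c, an inhibitor of G1 kinases, had 10.7 and 13.8 against 6.79 and 5.96 TPM (-0.83).

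Metabolic and stress lists gave no call either. Of 73 nuclear respiratory chain genes 59 had a change above 0, with a median of 0.14 that was -0.03 to 0.30 over the other settings. Uqcr11, a subunit of complex III, had 98.8 and 121 against 156 and 145 TPM (0.45). Of 28 genes of the unfolded protein response 4 had a change above 0 (median -0.17), and the chaperone gene Canx had 54.97 and 44.01 against 30.1 and 39.4 TPM (-0.50). Of 29 interferon response genes 13 had a change above 0. Zbp1, a nucleic acid sensor, had 3.03 and 5.604 against 8.08 and 8.27 TPM (0.83).

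**Figure D5:**
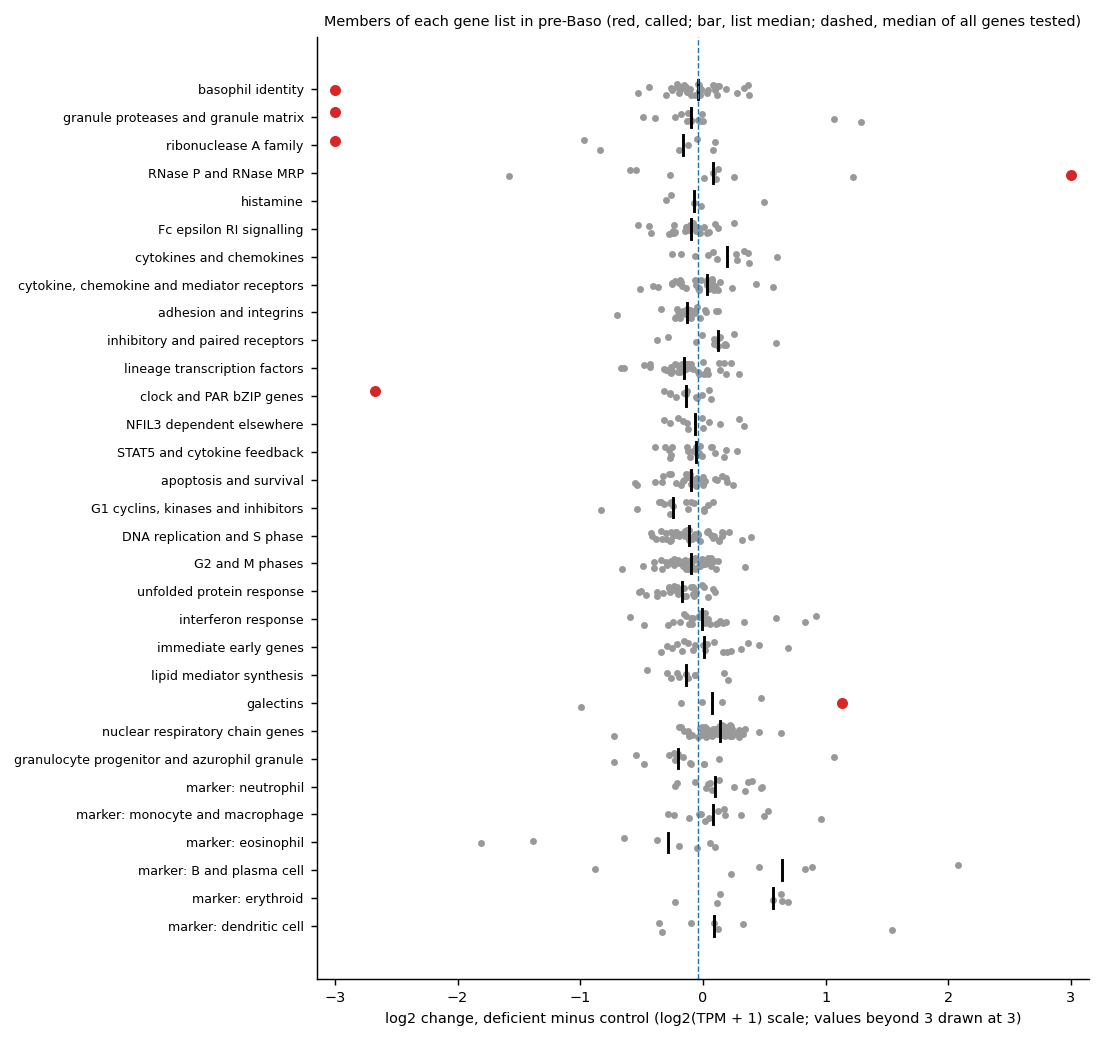
log2 change between genotypes in pre-Baso (x axis, deficient minus control on the log2(TPM + 1) scale) of every tested member of each list with 5 or more tested members (y axis), with a bar at the list's median and a dashed line at the median of all genes tested, -0.04. Called members, in red, are Mcpt8, Rnase12, Rprl3, Nfil3 and Lgals3, and the list medians lie between -0.29 and 0.65.

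By the contrast itself, and so as a description, 49 of the 12511 genes tested passed filters as higher and 167 as lower. The filters were a mean of at least 5 TPM in the higher group, an unadjusted p under 0.05 and no overlap. Systematically named genes, mitochondrial genes, pseudogenes and receptor segments were left out. This split was not recomputed under other scalings. Over all genes tested, 11.2% were higher and 19.3% lower without overlap, but 19.6% and 17.3% with TPM rescaled to protein-coding genes. Arpp19, a regulator of mitotic entry, had 22.5 and 26.4 TPM in control and 91.4 and 67.1 TPM in deficient pre-Baso (1.64 ± 0.46, adjusted p = 0.921). Treml2, a receptor of the TREM family, had 23.1 and 23.4 TPM in control and 9.41 and 10.3 TPM in deficient pre-Baso (-1.16 ± 0.27, adjusted p = 0.709). Neither was called. Rnasek had 13.7 and 61.1 against 139 and 133 TPM and Ptprcap 42.97 and 29.9 against 26.2 and 1.901 TPM, with wide gaps between the replicates of 1 group.

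Markers of other cell types were measured beside these results. The 14 neutrophil markers summed to 951 and 836 TPM in control against 1299 and 936 TPM in deficient libraries, led by S100a8 with 295 and 251 against 419.8 and 308 TPM. The 18 monocyte and macrophage markers summed to 157 and 180.1 TPM in control against 252 and 221 TPM in deficient libraries, led by Lyz2 with 128 and 150.4 against 215 and 179 TPM. The neutrophil sums overlapped between genotypes, while the monocyte sum, like Lgals3, was higher in both deficient libraries; the part of either cell type in the Lgals3 change was not tested. The 14 B and plasma cell markers summed to 15.3 and 16.6 TPM in control against 32.9 and 28.4 TPM in deficient libraries, with Igkc, the kappa light chain gene, at 1.95 and 1.56 against 9.89 and 11.3 TPM. Ms4a1, the CD20 gene of B cells, was at 0 in both controls and under 1 TPM in both deficient libraries. Of the 6 tested B and plasma cell markers 5 had a change above 0. Vpreb1 went the other way, with 1.22 and 1.40 against 0.273 and 0.234 TPM (-0.88), without overlap.

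The 9 eosinophil markers summed to 100.8 and 35.3 TPM in control against 34.1 and 15.8 TPM in deficient libraries, led by the granule protein gene Prg2 with 90.1 and 29.8 against 29.3 and 12.5 TPM. The 11 erythroid markers summed to 41.6 and 49.9 TPM in control against 37.7 and 123 TPM in deficient libraries, the second deficient library being the highest. Of 11 mast cell markers Cma1 alone was tested, and Mcpt1, Mcpt2, Mcpt4, Tpsab1 and Mrgprb2 were at 0 in all 4 libraries. None of the marker lists held a called gene. The SE of each marker also takes in the spread between basophil duplicates. Igkc had a change of 2.08 ± 1.14 in pre-Baso, with 115 and 5.06 TPM in control basophils. The lack of calls therefore cannot show that the sorts were equally pure. In bulk samples fewer cells of a type and less RNA per cell cannot be told apart.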

How the data were processed

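RNA from sorted cells was sequenced in 8 libraries, 4 groups of 2, made from total RNA with a SMARTER mRNA kit, per the labels' protocols. The submitters' processing notes name HISAT2, without a version, and the mm10 build. StringTie 2.1.4 estimated annotated transcripts only (Ensembl release 101), without a strand option, per the file headers. The deposited tables give TPM, FPKM and mean per-base coverage per transcript and no read counts. The authors' TPM were summed here by gene.

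The 12511 genes at 1 TPM or more in at least 2 libraries were fitted on log2(TPM + 1), pseudocount 1, with limma 3.58.1 in R 4.3.3: 4 group means over 8 libraries, 4 residual degrees of freedom, trended variance and Benjamini-Hochberg adjustment per contrast. Calls are genes whose adjusted p lay under 0.05. Depth was 272 to 398 assigned megabases; without counts no interval was computed. The fit was tested on simulated data for the pre-Baso contrast (12511 genes). It recovered 51% of 100 genes changed by a log2 of 1 and 90% of 100 changed by 2, with 2.08% false calls. Recovery was not split by level. These shares therefore do not give the sensitivity for genes at a few TPM in pre-Baso, such as Nfil3, Defb40 and Gm47484. The p-values rest on the spread between duplicates of all 4 groups, basophils included, moderated toward a trend over all genes tested.

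The members and the 34 gene lists were chosen with earlier results of these data known. The rule for named genes takes Nfil3, every called gene, the 12 highest and 12 lowest changes at an unadjusted p under 0.05, members of each list by p and abundance, neighbours within 1 Mb of Mcpt8 and Nfil3, leading markers of other cells and fixed basophil genes. Alternatives were other pseudocounts, filters and scalings, FPKM, robust moderation, the 4 pre-Baso libraries alone, a replicate block and leaving out each library. A few list members are not reported here.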

Additional observations from a re-analysis of the deposited data

How the results depend on the processing

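The count of 8 genes called in pre-Baso was 23 with no filter on low values, 5 with TPM rescaled to protein-coding genes (11216 genes tested) and 3 with the 4 pre-Baso libraries alone, and it was 5 to 9 when single libraries were left out. Of the 23 without a filter 4 were among the 8. No result changed direction among those called. The count of genes whose genotype effect differed between populations, 0, was 2 with a pseudocount of 0.1 and 2 with rescaling to protein-coding genes, and 0 to 2 when single libraries were left out; the cause was not tested. With a replicate block 6 genes were called in pre-Baso and 0 for the difference, and the calls of Lgals3 (limma adjusted p = 0.281), Defb40 (0.0545) and Gm47484 (0.0568) were lost. Deviations of same-numbered control and deficient libraries correlated over all genes at -0.05 in pre-Baso and at 0.20 in basophils. Such a correlation cannot exclude pairing that shows in a few genes. In basophils the dendritic cell markers summed to 794 and 704 TPM in the first control and deficient libraries. In the second ones they summed to 60.8 and 80.6 TPM. Monocyte and macrophage markers summed to 892 and 812 TPM in the first control and deficient basophil libraries and to 332 and 372 TPM in the second. The neutrophil, B and plasma cell, eosinophil, mast cell and erythroid sums were likewise higher in the first library of each genotype. The T and NK cell sums and the megakaryocyte and platelet sums did not follow the replicate number. Whether the replicate numbers pair samples was not tested further. The difference of Nfil3 over all libraries, -3.05, was -3.33 to -2.79 without single libraries. Of 204 named genes that were not called 2 were called in some setting, Rpph1 and Hsd3b7, and 70 changed sign in some setting, as did 21 of the 34 list medians. The share of genes with an unadjusted p under 0.05 near Mcpt8 was also recomputed in each setting, a choice made after seeing the data. Depth is known only as assigned bases, so low levels carry no counting error here.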
